A study of Mus musculus with 6 samples.

Results

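Aerocytes are the lung capillary endothelial cells marked by Car4 and Ednrb, and here they were chosen as barcodes with endothelial genes and at least 2 UMIs (unique molecular identifiers, each standing for one captured RNA molecule) of Car4 and Ednrb together. In all, 283 of the 25704 barcodes that passed the quality rule were aerocytes (1.10%). The quality rule asked for at least 1000 UMIs, at least 500 genes and at most 10% of UMIs in mitochondrial genes. The endothelial rule asked for a UMI of at least 3 of the 6 genes Cdh5, Pecam1, Cldn5, Egfl7, Calcrl and Ptprb, with no UMI of the lymphatic genes Prox1 and Mmrn1 or of the leukocyte gene Ptprc. The 536 barcodes that met the same endothelial rule with 0 or 1 Car4 and Ednrb UMIs are called other blood endothelium below.

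The cells came from the right lung of 6 male mice, each with its own single-cell 3′ library. All mice carried the human CTLA4 knock-in (genotype hCTLA4) on a C57BL/6 background, were 12 weeks old, and received 2 oropharyngeal doses of bleomycin at 1.25 U/kg, 2 weeks apart, to induce lung fibrosis. From day 21 after the second dose, 3 mice received an IgG1 isotype control antibody and 3 received ipilimumab, an antibody against human CTLA4. Antibody was given 2 times a week for 4.5 weeks, with ipilimumab at 5 mg/kg. No mouse without bleomycin entered the comparison, so all values below describe fibrotic lung under one antibody or the other.

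In lung alveoli the capillary network is built from aerocytes, large thin cells that face the air space and are specialized for gas exchange, and from general capillary cells, which act as progenitors and carry much of the vasomotor and trafficking machinery. Aerocytes bind endothelin through Ednrb, anchor carbonic anhydrase 4 at their surface, carry a high level of the VEGF receptor Kdr and secrete apelin, whose receptor Aplnr marks general capillary cells. Ipilimumab blocks CTLA4, an inhibitory receptor of T cells.

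Aerocytes numbered 46, 26 and 47 in IgG1 replicates 1 to 3 and 74, 30 and 60 in ipilimumab replicates 1 to 3. Their median depth was 7148, 6720.5 and 8620 UMIs with IgG1 and 5151.5, 8110 and 6501 UMIs with ipilimumab, and other blood endothelium was shallower in every mouse, with medians from 2380 to 4113 UMIs. Car4 and Ednrb were found together in 247 of the 283 barcodes, while 32 held Car4 alone and 4 held Ednrb alone. Of 25635 distinct barcode sequences that passed the quality rule, 68 occurred in more than 1 library, among them those of 2 aerocytes, and no barcode was an aerocyte in 2 libraries. Ipilimumab replicate 1 stood apart: 80.8% of its UMIs lay in barcodes that passed the quality rule, against 92.1% to 92.3% in the other 5 libraries.

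The label was checked against markers. Each of the 12 listed aerocyte genes, of which Car4, Ednrb and Cdh5 were in the rule, exceeded its level in other blood endothelium in 6 of 6 mice, as did 23.9% of the 4309 genes of at least 50 CPM (UMIs of a gene scaled to 1000000 UMIs of the summed cells) in either class. Because these cells were chosen on their own RNA, this contrast is a description and no test was made of it. The lymphatic genes Prox1 and Mmrn1 and the leukocyte gene Ptprc were kept at 0 by the rule. The P-selectin gene Selp, a venous marker, had 0 of 2122179 UMIs in the aerocytes of the 6 mice together, which allows up to 1.41 CPM. In other blood endothelium it had 109, 2 and 12 UMIs in IgG1 replicates 1 to 3 and 243, 0 and 288 UMIs in ipilimumab replicates 1 to 3. Most of these UMIs came from 3 mice, whose sums were also the larger ones or among them.

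A pair of very large barcodes inside the gate carried RNA of other cells. A barcode of ipilimumab replicate 1 with 48307 UMIs held 46 Car4 and Ednrb UMIs together with 7351 UMIs of type 2 alveolar (AT2) markers, of which 5409 were Sftpc, and 1171 UMIs of Lyz2. A barcode of IgG1 replicate 2 with 43507 UMIs held 13 Car4 and Ednrb UMIs together with 519 UMIs of general capillary markers and 48 of fibroblast markers. The 519 include 72 of Vwf, which is on both the general capillary and the venous list. The next largest aerocyte barcode had 21786 UMIs. Some of the treatment values are given below with and without barcodes of over 30000 UMIs, a limit chosen after they were seen.

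The summed levels of aerocyte genes rose with the number of Car4 and Ednrb UMIs, as the plot of marker levels by UMI class shows. Sums over barcodes cannot tell graded cells from a mixture of cells. Of the 283 barcodes, 27 held exactly 2 such UMIs, 44 held 3 to 5, 30 held 6 to 10 and 182 held more than 10. Fibin, a secreted protein gene that the rule did not use, lay at 48.4 CPM in the 74 endothelial barcodes with 1 such UMI, just outside the limit, and at 83.2 CPM in the 27 barcodes with 2, just inside it. It lay at 326.2 CPM in barcodes with 3 to 5 and 1079 CPM in barcodes with more than 10. Plvap, which encodes the diaphragm protein of fenestrated and vesicle-rich endothelium and is a general capillary marker, ran the other way, from 543.3 CPM at 1 UMI and 532.7 CPM at 2 UMIs to 354.8 CPM at 3 to 5 and 24.1 CPM above 10. In the barcodes nearest the limit Plvap was thus about level with other blood endothelium. Fibin had a UMI in 18.5%, 50% and 95.6% of barcodes with 2, 3 to 5 and more than 10 such UMIs, and Plvap in 40.7%, 15.9% and 2.2%. Of the 27 barcodes with 2, 88.9% held Car4 and 33.3% Ednrb. Car4 averaged 172.8 CPM in barcodes of at most 100 UMIs, which hold free RNA, and the part of free RNA in the gate was not tested. Median depth also differed between these classes, from 2280 UMIs in barcodes with 2 Car4 and Ednrb UMIs to 8717.5 UMIs in those with more than 10, and the part of depth in the gradient was not tested.

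**Figure D1:**
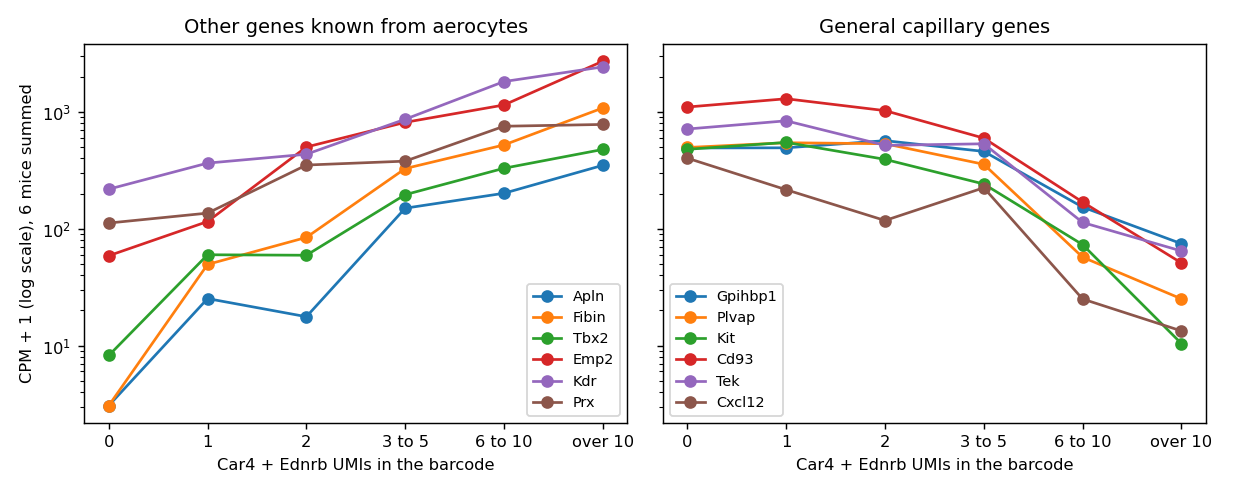
Level of 6 aerocyte genes (left) and 6 general capillary genes (right), in CPM plus 1 on a log axis, over endothelial barcodes of the 6 mice summed by their number of Car4 and Ednrb UMIs. Apln, Fibin, Tbx2, Emp2, Kdr and Prx are lowest in the barcodes with 0 such UMIs and highest in those with more than 10, while Plvap, Cd93, Kit, Tek, Cxcl12 and Gpihbp1 are lowest in the last class.

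With the limit at 6 Car4 and Ednrb UMIs, also chosen after the gradient was seen, 37, 20 and 41 aerocytes were left in the IgG1 mice and 47, 24 and 43 in the ipilimumab mice. Ipilimumab replicate 1 lost the most barcodes, from 74 to 47. The sum of the 11 general capillary markers in its aerocytes went from 977.7 to 664 CPM, and in IgG1 replicate 1 from 2309 to 410.5 CPM.

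Of the genes with the largest ratio between aerocytes and other blood endothelium, Ednrb itself led with a median log2 ratio of 6.78 (5.96 to 7.27 over the 6 mice, after adding 10 CPM to each side), and Car4 had 5.47, both as the rule fixed. Among genes outside the rule, Fibin had a median log2 ratio of 6.08 (4.90 to 6.90). Its level was 852, 676 and 1187 CPM in the aerocytes of IgG1 replicates 1 to 3 and 839, 924 and 980 CPM in those of ipilimumab replicates 1 to 3, against 18.5 CPM or less in the other blood endothelium of every mouse. The classes did not overlap for Fibin in any mouse.

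Igfbp7, a secreted protein that binds insulin-like growth factors, followed with 3298 ± 478 CPM in aerocytes and 66 ± 40.8 CPM in other blood endothelium (mean ± SD, n = 6 mice). Apln, the apelin ligand gene, had 286.1 ± 88.7 CPM against 5.76 ± 7.89 CPM. Tbx2, a T-box transcription factor, had 423.5 ± 54.2 CPM against 13.3 ± 4.43 CPM, and Tbx3os1, annotated antisense to its relative Tbx3, had 395.7 ± 85.4 CPM against 21.8 ± 16.2 CPM. Emp2, a tetraspan membrane protein gene, had 2295 ± 276 CPM against 66.5 ± 16.3 CPM. In each of these genes the lowest aerocyte level of any mouse lay above the highest level in other blood endothelium.

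Rgs6, which speeds the turn-off of G proteins, had a median log2 ratio of 5.34, and Pde8b, which degrades cyclic AMP, had 5.16. Cacna1c, the pore subunit of an L-type calcium channel, had 3.97, and the actin regulator Carmil1 had 3.84. Matrix and surface genes included Tmeff2 at 5.78, Egflam at 4.87, the sulfotransferase gene Chst1 at 4.80 and the procollagen processing gene Pcolce2 at 4.07. The rest of the 20 leading genes were Slc22a23 (4.85), Lmntd1 (4.63), AW112010 (4.49) and 2610203C22Rik (3.95). All 20 were higher in aerocytes in 6 of 6 mice, which the rule for naming them required.

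**Figure D2:**
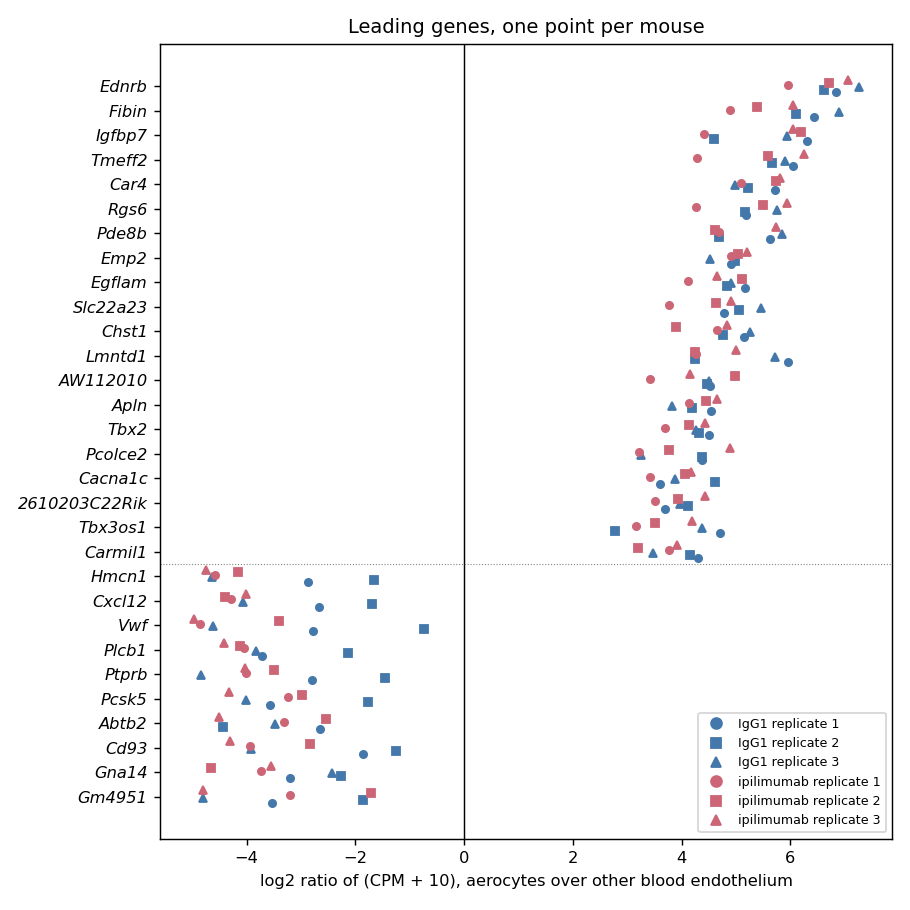
Log2 ratio of CPM plus 10 between aerocytes and other blood endothelium for the 20 genes of largest and the 10 of smallest median ratio, with a point per mouse (blue IgG1, red ipilimumab). The upper 20 lie between 2.77 and 7.27 in every mouse, and among the lower 10 IgG1 replicate 2 sits closest to 0 for Vwf at -0.75.

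Of the 10 genes at the other end, Cxcl12, Vwf, Ptprb and Cd93 are on the general capillary list. Hmcn1, which encodes the matrix protein hemicentin 1, had a median log2 ratio of -4.36, the chemokine gene Cxcl12 had -4.04, Vwf had -4.01 and the phospholipase gene Plcb1 had -3.94. Ptprb, which the endothelial rule used, had -3.75, and Cd93, a C-type lectin family receptor, had -3.37. Pcsk5 (-3.41), Abtb2 (-3.40), Gna14 (-3.37) and Gm4951 (-3.37) completed the 10. The spread over mice was wider here than among the leading aerocyte genes: Hmcn1 ran from -4.74 to -1.65 and Vwf from -4.97 to -0.75, with IgG1 replicate 2, the mouse of the large mixed barcode, at the upper end of both.

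Of the 10 VEGF, angiopoietin and apelin genes with at least 50 CPM, 3 were higher in aerocytes in 6 of 6 mice and 5 were lower, against 23.9% and 23.1% of all 4309 such genes. The receptor gene Kdr had 2153 ± 262 CPM in aerocytes and 239.4 ± 38.3 CPM in other blood endothelium, and the co-receptor Nrp1 had 1924 ± 234 and 459.3 ± 88.8 CPM. The ligand gene Vegfa had 67.3 ± 50.3 CPM in aerocytes and 419.5 ± 61.9 CPM in other blood endothelium. The angiopoietin receptor gene Tek was lower in aerocytes in 6 of 6 mice, with a median log2 ratio of -2.47, and the VEGF receptor gene Flt1 was lower in 5 of 6, with -0.39. The apelin receptor gene Aplnr had 12 ± 3.74 CPM in aerocytes against 73.4 ± 10.4 CPM. The endothelin ligand gene Edn1 had 16.1 ± 13.5 CPM in aerocytes and 145.5 ± 53.4 CPM in other blood endothelium.

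Of 15 BMP and TGF-beta genes, 7 were higher in aerocytes in 6 of 6 mice and 2 were lower. Over all 4309 genes of at least 50 CPM the shares were 23.9% and 23.1%. Acvrl1, a type I receptor of this pathway, had 1276 ± 153 CPM in aerocytes and 671 ± 94.7 CPM in other blood endothelium. Id1, a target gene of the pathway, had 363.3 ± 49.6 and 134.4 ± 37.7 CPM. The ligand gene Bmp6 had 189.8 ± 114 CPM in aerocytes and 1279 ± 451 CPM in other blood endothelium.

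Leukocyte adhesion and surface genes were higher in aerocytes in 6 of 6 mice for 5 of 8 measured members and lower for 1. Cd34 had 683.7 ± 150 CPM against 84.5 ± 25.7 CPM, Icam2 1236 ± 187 against 320.5 ± 15 CPM, and Cd47, which signals against engulfment, 1367 ± 102 against 431.6 ± 52.7 CPM. Of 9 basement membrane and matrix genes, 5 were higher in aerocytes in 6 of 6 mice and 2 were lower. Lamc1 and Ntn4, the latter encoding netrin 4, had median log2 ratios of 1.53 and 2.19, while Sparc was lower in 6 of 6 mice. Among 12 junction genes 4 were higher and 2 lower in every mouse. The shares to set beside the counts of these lists were 23.9% higher and 23.1% lower, over all 4309 genes of at least 50 CPM. Cldn5, the main claudin of endothelium and a gene of the endothelial rule, had 3370 ± 311 against 1587 ± 315 CPM.

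Of 15 interferon and MHC class I genes, 7 were lower in aerocytes in 6 of 6 mice, 2 were higher and the other 6 were mixed over mice. Of all 4309 genes of at least 50 CPM, 23.1% were lower and 23.9% higher in 6 of 6 mice. Gbp2, an interferon-induced GTPase gene, had 41 ± 13.8 CPM in aerocytes and 256.1 ± 49 CPM in other blood endothelium, and Isg15, a ubiquitin-like protein gene, had 88.4 ± 31.9 and 274 ± 86.7 CPM. The 2 higher genes were B2m and H2-D1 of MHC class I itself, B2m with a median log2 ratio of 0.32. H2-K1, also of MHC class I, was lower in 6 of 6 mice, with -0.28.

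Genes linked to cell cycle arrest and p53 were not uniform. Of 7 with at least 50 CPM, 4 were higher in aerocytes in 6 of 6 mice and 1 was lower. The shares over all 4309 genes at that level were 23.9% and 23.1%. Phlda3, a p53 target, had 217.1 ± 12.5 CPM in aerocytes and 25.1 ± 16.5 CPM in other blood endothelium, and the cell cycle inhibitor gene Cdkn2b had 93.2 ± 28.9 and 1.72 ± 1.45 CPM. Cdkn1a, which encodes the inhibitor p21, was the gene that lay lower in every mouse, with a median log2 ratio of -0.39. Of the 10 cell division genes none had enough UMIs to be tested in aerocytes, and Cdk1, Ccnb1 and Birc5 each had 0 UMIs in the 6 mice, which allows up to 1.41 CPM.

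Of the AT1 markers, Hopx and Clic5 were high in aerocytes at 854 ± 146 and 1378 ± 174 CPM. The defining AT1 genes Ager and Rtkn2 had a mean of 6.65 and 3.27 CPM. AT2 markers summed to 33 CPM or less in the aerocytes of 5 mice and to 15882 CPM in ipilimumab replicate 1, where Sftpc was the most abundant and where 1177 CPM were left without the barcode of over 30000 UMIs. In the same mouse the fibroblast, T cell and B cell markers summed to 314.5, 46.4 and 121 CPM in aerocytes, the highest of the 6 mice in each, and fibroblast markers were also high in IgG1 replicate 2 at 233 CPM. Arterial markers, with Efnb2 the most abundant, ran from 198.3 to 575.7 CPM and lymphatic markers, mostly Lyve1, from 125 to 243.8 CPM. Pericyte and smooth muscle, neutrophil, and platelet and red cell markers reached at most 100.5, 41.1 and 14.3 CPM. The plot of marker lists gives sums for each mouse.

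**Figure D3:**
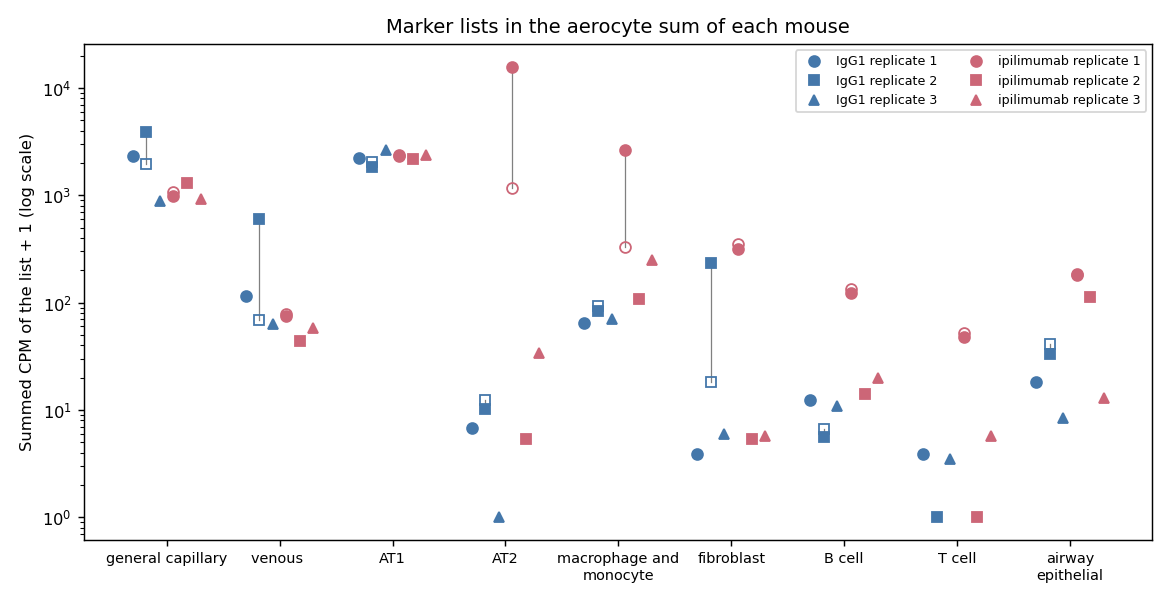
Summed CPM plus 1 (log axis) of 9 marker lists in the aerocyte sum of each mouse, with filled points for all aerocytes and open points, joined by a line, without barcodes of over 30000 UMIs. The AT2 sum of ipilimumab replicate 1 drops from 15882 to 1177 CPM and the venous sum of IgG1 replicate 2 from 598.5 to 68.4 CPM.

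Whether ipilimumab went with a change in the number of aerocytes was asked first. Aerocytes made up 1.02% (95% exact Clopper-Pearson interval 0.74% to 1.35%), 0.60% (0.39% to 0.88%) and 1.41% (1.03% to 1.86%) of barcodes that passed the quality rule in IgG1 replicates 1 to 3. They made up 1.43% (1.13% to 1.79%), 0.72% (0.49% to 1.03%) and 1.44% (1.10% to 1.84%) in ipilimumab replicates 1 to 3. The groups overlapped, with means of 1.01% ± 0.40 and 1.20% ± 0.41 (SD, n = 3). The difference of 0.19 percentage points had p = 0.5 in a two-sided exact permutation test, where 3 mice against 3 cannot give less than 0.1. Without IgG1 replicate 2 the difference was -0.0145, without possible doublets 0.0239, and with at least 6 Car4 and Ednrb UMIs 0.0030 percentage points. It was larger, at 0.387, without IgG1 replicate 3 and, at 0.426, without ipilimumab replicate 2. Leaving out possible doublets was uneven over mice, as ipilimumab replicate 1 went from 74 to 44 aerocytes. IgG1 replicates 1 to 3 went from 46, 26 and 47 to 39, 24 and 46, and ipilimumab replicates 2 and 3 from 30 and 60 to 28 and 56. Intervals cover counting error only.

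Among blood endothelial barcodes, aerocytes made up 31.5% (24.1% to 39.7%), 42.6% (30.0% to 55.9%) and 60.3% (48.5% to 71.2%) with IgG1 and 32.3% (26.3% to 38.8%), 26.1% (18.3% to 35.1%) and 31.6% (25.0% to 38.7%) with ipilimumab. The means were 44.8% ± 14.5 and 30.0% ± 3.40, and the difference of -14.8 percentage points had p = 0.3 in the exact permutation test, with 0.5 for both shares after Benjamini-Hochberg adjustment over the 2 shares. The groups overlapped in the plot of shares, because IgG1 replicate 1 lay below 2 of the ipilimumab mice. IgG1 replicate 3 carried much of the gap, which was -7.07 percentage points without it. With at least 2000 UMIs a barcode the groups did not overlap, at 35.8%, 50% and 62.3% with IgG1 and 34.7%, 28.9% and 34.5% with ipilimumab, a difference of -16.7 with p = 0.1 in the exact permutation test, the smallest it can give. With at least 6 Car4 and Ednrb UMIs the exact permutation test gave p = 0.1 for a difference of -16.7 as well, and with barcodes thinned to 1000 UMIs p = 0.3 for a difference of -8.41. The shares are of captured barcodes, not of cells in the lung.

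**Figure D4:**
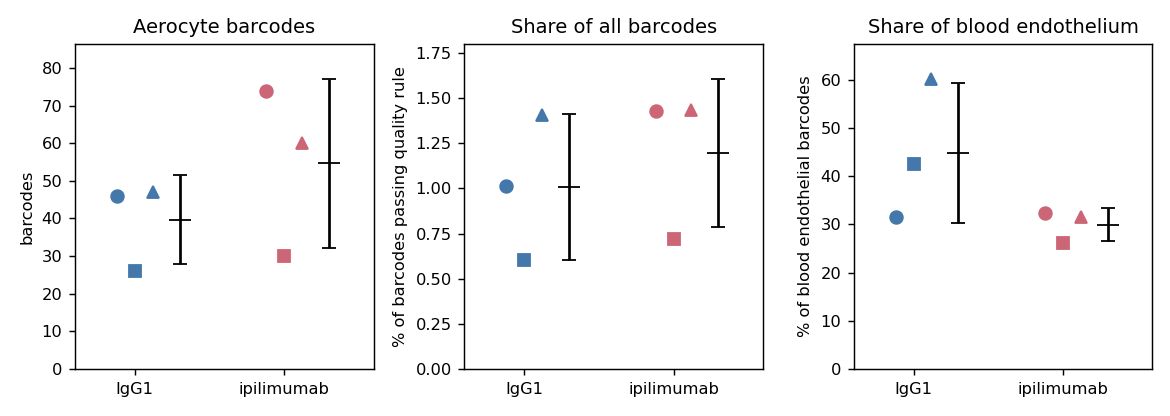
Aerocyte barcodes, their share of all barcodes that passed the quality rule and their share of blood endothelial barcodes, with a point per mouse (circle, square and triangle for replicates 1, 2 and 3) and the mean ± SD of 3 mice in black. The ipilimumab mice sit between 26.1% and 32.3% of blood endothelium, and the IgG1 mice between 31.5% and 60.3%.

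Counts summed over the aerocytes of each mouse were then compared between the antibodies, gene by gene. No gene of 5702 tested was called by edgeR's quasi-likelihood test (adjusted p under 0.05 and a log2 difference over 0.3), so 0% were called in either direction. At an unadjusted p under 0.05, 174 genes were higher and 166 lower with ipilimumab, 340 in all, and the lowest adjusted p was 0.439. DESeq2 called 1 gene, Hmcn1. Without ipilimumab replicate 1, the library that stood apart, edgeR again called 0 genes, with 265 at an unadjusted p under 0.05. Without IgG1 replicate 3 it called 11 genes, all lower with ipilimumab, and without ipilimumab replicate 3 it called Scgb1a1, an airway epithelial marker. Scgb1a1 in barcodes of at most 100 UMIs, which hold free RNA, was at 1125, 1942 and 450.8 CPM in the IgG1 libraries and 14594, 13578 and 2523 CPM in the ipilimumab libraries, and the part of free RNA in this call was not tested. In 345 genes (6.05%) every ipilimumab mouse lay above every IgG1 mouse, and in 329 genes (5.77%) every ipilimumab mouse lay below. The median standard error of a log2 difference was 0.29, which sets the precision for a single gene at these numbers of cells.

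None of the 12 aerocyte markers had an unadjusted p under 0.05 between the antibodies. Their median log2 difference was 0.02, against -0.0026 over all genes tested, and -0.04 without barcodes of over 30000 UMIs. Car4, Ednrb and Cdh5 among them were used to choose the cells, so their levels are a description. The most abundant markers outside the rule, Emp2 and Kdr, had log2 differences of 0.04 and 0.02 with standard errors of 0.17, and their groups overlapped. Ednrb, which is at chr14:103814625-103844402 (GRCm38), had 1408, 973.2 and 1530 CPM with IgG1 and 1238, 1360 and 1322 CPM with ipilimumab. Car4, at chr11:84957786-84966044, had 1850, 1320 and 1817 CPM with IgG1 and 1540, 1843 and 2002 CPM with ipilimumab. Both genes overlapped between groups, and IgG1 replicate 2 was lowest in each. The 12 log2 differences ran from -0.31 for Chst1 to 0.16 for Emcn, with standard errors of at most 0.27.

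The 10 genes of smallest p, named although none was called, all had an adjusted p of 0.439 in edgeR's quasi-likelihood test. Ier3 (chr17:35821684-35822923), an immediate early gene linked to survival under stress, had 760.2, 817.8 and 557.8 CPM with IgG1 and 1133, 1459 and 1164 CPM with ipilimumab. Every ipilimumab mouse lay above every IgG1 mouse, with a log2 difference of 0.83 (SE 0.19). Cd274 (chr19:29367455-29388095), which encodes the checkpoint ligand PD-L1, had 97.5, 50.3 and 79.3 CPM with IgG1 and 147.2, 151.1 and 170 CPM with ipilimumab. The groups did not overlap here either, and the log2 difference was 1.01 (SE 0.24). The share of aerocytes with a Cd274 UMI did overlap, at 39.1%, 34.6% and 36.2% with IgG1 and 36.5%, 36.7% and 41.7% with ipilimumab. Without barcodes of over 30000 UMIs the log2 differences were 0.82 for Ier3 and 0.96 for Cd274, with adjusted p of 0.204 and 0.308. Without ipilimumab replicate 1 they were 0.87 and 1.03. In barcodes of at most 100 UMIs, which hold free RNA, Cd274 was at 208.5, 194 and 207.5 CPM in the IgG1 libraries and 201.1, 257.3 and 225 CPM in the ipilimumab libraries, above its level in aerocytes in all 6 mice. The part of free RNA was not tested.

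In other blood endothelium Ier3 and Cd274 also had no overlap between groups, with log2 differences of 0.50 and 1.08 and edgeR adjusted p of 0.646 and 0.358. Neither gene was called there, and the test of a difference between the classes gave adjusted p of 0.997 for both.

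Genes that lay lower with ipilimumab among the 10 included Hmcn1 and Cd93. Hmcn1 (chr1:150562524-150993435) had 309.8, 329 and 99.2 CPM with IgG1 and 64.5, 82 and 40.1 CPM with ipilimumab, without overlap and with a log2 difference of -1.98 (SE 0.39). Cd93 had 335.6, 456.9 and 89.2 CPM with IgG1 and 68.5, 125.2 and 40.1 CPM with ipilimumab, and IgG1 replicate 3 lay below ipilimumab replicate 2. Both genes are far higher in other blood endothelium. With at least 6 such UMIs, Hmcn1 was at 7.14, 305.8 and 0 CPM with IgG1 and 27.7, 9.85 and 30 CPM with ipilimumab, so that only IgG1 replicate 2 was high. Without barcodes of over 30000 UMIs, Hmcn1 was at 102.6 CPM in that mouse and the log2 difference was -1.50, while Cd93 was at 148.3 CPM there with a log2 difference of -1.37 in place of -1.95. Cd93 had a log2 difference of -0.80 without possible doublets, where ipilimumab replicate 1 kept 44 of 74 aerocytes.

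Of the 11 general capillary markers, 7 passed the count filter, and all 7 had a negative log2 difference, beside 2869 of all 5702 genes tested. Their median was -1.11, and none was called. Without barcodes of over 30000 UMIs 6 were negative and Gpihbp1 was positive at 0.11, with a median of -0.65. Plvap, Cd93, Sema3c and Tek had an unadjusted p under 0.05, beside 340 of all 5702 genes tested. Ptprb, also among the 7 and lower, was used to choose the cells, so its value is a description. The summed markers, of which Sema3c was the most abundant, were at 2309, 3925 and 882.6 CPM in the aerocytes of IgG1 replicates 1 to 3 and 977.7, 1291 and 918.3 CPM in those of ipilimumab replicates 1 to 3. The groups overlapped through IgG1 replicate 3. The sum was 1939 CPM in IgG1 replicate 2 and 1074 CPM in ipilimumab replicate 1 without barcodes of over 30000 UMIs. With at least 6 Car4 and Ednrb UMIs the sums were 410.5, 3240 and 340.6 CPM with IgG1 and 663.8, 517.2 and 622 CPM with ipilimumab, so that IgG1 replicates 1 and 3 lay below every ipilimumab mouse. Only 4 of the 7 markers were still tested at that limit, all negative, with a median of -0.62. In the other blood endothelium the same 11 markers had a median log2 difference of -0.25. The part of general capillary RNA within the gate in these differences was not tested.

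Lyz2, which encodes lysozyme and is known from macrophages and AT2 cells, and Chil3, known from alveolar macrophages, also stood among the 10. Lyz2 had 37.3, 45.7 and 32.2 CPM with IgG1 and 2607, 51.8 and 63.7 CPM with ipilimumab, where 1171 of the 1293 UMIs behind the 2607 CPM lay in the large barcode of ipilimumab replicate 1, which held 7351 UMIs of AT2 markers and 0 of Chil3, and 272.5 CPM were left without it. The groups overlapped for Lyz2 without barcodes of over 30000 UMIs, with IgG1 replicate 2 at 57 CPM and ipilimumab replicate 2 at 51.8 CPM. Chil3 had 17.2, 22.8 and 19.8 CPM with IgG1 and 48.4, 51.8 and 179.4 CPM with ipilimumab. It passed the count filter only through the ipilimumab mice, where it was high, so this separation is a description. In barcodes of at most 100 UMIs Chil3 was at 3678, 5278 and 2748 CPM in the IgG1 libraries and 1874, 4589 and 18235 CPM in the ipilimumab libraries, and ipilimumab replicate 3 was highest in both. The 8 macrophage and monocyte markers, of which 5 had a UMI and C1qa, C1qb and Marco had 0, summed to 63.1, 82.2 and 69.4 CPM with IgG1 and 2661, 107.9 and 250.2 CPM with ipilimumab, with 330.6 CPM in place of 2661 without barcodes of over 30000 UMIs. Lyz2 made up 1171 of the 1172 UMIs of that list in the large barcode. The part of free RNA in these values was not tested.

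The remaining genes of smallest p were Cpne9, Klhl20, Nhsl1 and Samd12, of which none was called. Cpne9, a copine gene, had 0, 13.7 and 4.96 CPM with IgG1 and 38.3, 34.5 and 35.4 CPM with ipilimumab. Klhl20, an adaptor of a ubiquitin ligase, had 60.2, 32 and 47.1 CPM with IgG1 and 10.1, 17.3 and 14.2 CPM with ipilimumab. Nhsl1 had 74.6, 50.3 and 32.2 CPM with IgG1 and 10.1, 4.32 and 18.9 CPM with ipilimumab, and Samd12 had 393, 370.1 and 280.1 against 127, 211.5 and 205.4 CPM. In these 4 genes the groups did not overlap. Cpne9, Klhl20 and Nhsl1 passed the count filter only through the group where they were high. Their separation is therefore a description, and no support is drawn from it. The log2 difference of Samd12 was -0.95, and -0.42 without possible doublets, where ipilimumab replicate 1 kept 44 of 74 aerocytes. Klhl20 and Cpne9 rest on few molecules, at most 21 and 19 UMIs in any mouse. With at least 6 Car4 and Ednrb UMIs, Nhsl1 was at 14.3, 51 and 0 CPM with IgG1 and 4.61, 0 and 5.46 CPM with ipilimumab, and the groups then overlapped.

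**Figure D5:**
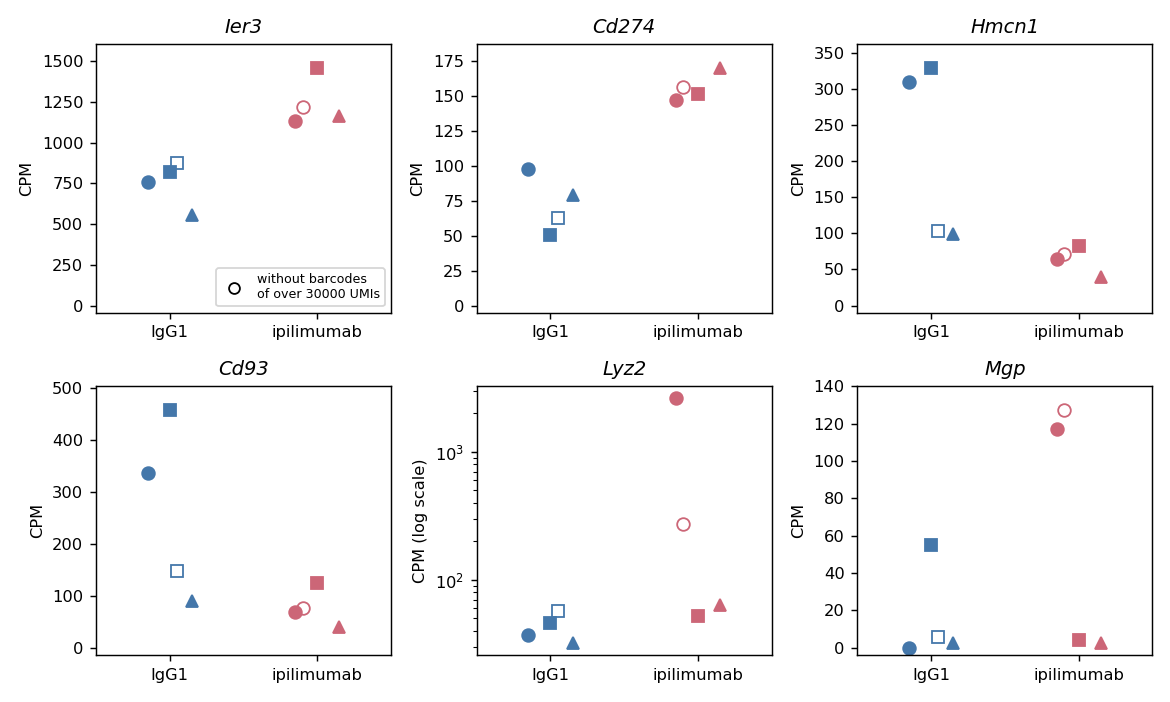
CPM of 6 genes in the aerocyte sum of each mouse (circle, square and triangle for replicates 1, 2 and 3), with a log axis for Lyz2, and open points for the same mouse without barcodes of over 30000 UMIs. Ier3 and Cd274 have no overlap between the antibodies, Lyz2 is high in ipilimumab replicate 1 alone, and Hmcn1 and Cd93 drop in IgG1 replicate 2 when its largest barcode is left out.

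Lists of genes chosen for fibrotic and immune-treated lung held no called gene in aerocytes, and below each list is given with members of high mean CPM and others named after their values were seen. To set beside the counts of each list, 2833 of all 5702 genes tested had a positive difference and 2869 a negative one. Among 15 tested interferon and MHC class I genes, 9 had a positive and 6 a negative difference with ipilimumab, with a median log2 difference of 0.14, or 0.24 without barcodes of over 30000 UMIs. B2m and H2-D1, the most abundant, overlapped between groups, with log2 differences of 0.19 and 0.31. Irf1, a transcription factor induced by interferon gamma, had 599.5, 717.3 and 525.6 CPM with IgG1 and 774.1, 867.7 and 913.5 CPM with ipilimumab, without overlap and with a log2 difference of 0.49 (edgeR adjusted p = 0.781). Of the 10 genes of MHC class II and T cell costimulation, 5 were tested. All 5 had a positive difference, with a median of 0.76, and Cd274 was the one with an unadjusted p under 0.05. Cd74, the invariant chain gene and most abundant of the list, overlapped with a log2 difference of 0.59 (SE 0.72). The MHC class II gene H2-Aa also overlapped between groups, from 4 UMIs in IgG1 replicate 3 to 108 UMIs in ipilimumab replicate 1. Without barcodes of over 30000 UMIs all 5 differences were positive with a median of 0.92, and Cd74 was at 177.8, 211 and 17.4 CPM with IgG1 and 272.5, 358.3 and 96.8 CPM with ipilimumab, which overlapped. The B cell markers summed to 131.8 CPM in ipilimumab replicate 1 then, against at most 18.9 CPM in the other 5 mice, and their part in these values was not tested.

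Of 15 tested BMP and TGF-beta genes, 12 had a negative difference, beside 2869 of all 5702 genes tested, and none was called. Their median log2 difference was -0.23, or -0.14 without barcodes of over 30000 UMIs, and in other blood endothelium 11 of 16 were negative with a median of -0.15. The receptor genes Bmpr2 and Acvrl1, the most abundant, had log2 differences of -0.13 and -0.10 with overlap. Smad6, an inhibitor induced by BMP signalling, had 728.6, 653.3 and 738.8 CPM with IgG1 and 465.7, 539.6 and 427.3 CPM with ipilimumab, with no overlap and a log2 difference of -0.56 (edgeR adjusted p = 0.775). The cytokine gene Tgfb1 ran the other way without overlap, at 160.6, 127.9 and 156.2 CPM with IgG1 and 213.7, 237.4 and 240.8 CPM with ipilimumab, with a log2 difference of 0.63 (edgeR adjusted p = 0.730). Both kept about these log2 differences with at least 6 Car4 and Ednrb UMIs, at -0.60 and 0.64. Tgfb1 was at 228.5 CPM or more in the barcodes of at most 100 UMIs of every library, and the part of free RNA was not tested.

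Cell cycle arrest and p53 target genes had a median log2 difference of 0.17 over 10 tested, 8 positive and 2 negative, with no call. Cdkn2a, whose locus encodes p16 and p19ARF, had 12, 1 and 3 UMIs with IgG1 and 25, 6 and 13 UMIs with ipilimumab. That is 34.4, 4.57 and 7.44 CPM against 50.4, 25.9 and 30.7 CPM, with overlap through IgG1 replicate 1 and a log2 difference of 1.19 (edgeR adjusted p = 0.821). Cdkn1a had 367.2, 516.3 and 471 CPM with IgG1 and 570.5, 569.8 and 524 CPM with ipilimumab. Its groups were narrowly separate, with a log2 difference of 0.32, but without barcodes of over 30000 UMIs IgG1 replicate 2 was at 633 CPM, the highest of all, and the log2 difference was 0.21. Sesn1, of the same list, went the other way, with every ipilimumab mouse below every IgG1 mouse in CPM.

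The other lists held no called gene. Junction genes had a median log2 difference of -0.02 over 11 tested, Notch genes -0.10 over 6, VEGF, angiopoietin and apelin genes -0.19 over 7, of which 6 were negative, and vasoactive genes -0.27 over 7, of which 5 were negative. Without the barcodes of over 30000 UMIs the VEGF list had -0.11 and the injury-associated list -0.10. Basement membrane genes had -0.07 over 8, leukocyte adhesion genes 0.13 over 5 and injury-associated capillary genes -0.22 over 3. Of the most abundant members outside the rule, Kdr had 0.02, Nrp1 -0.08, Notch1 -0.08, Ramp2 0.02, Timp3 -0.03, Col4a1 -0.0032 and Cd47 -0.04, and the groups overlapped in each. Cldn5 at 0.13 and the adrenomedullin receptor gene Calcrl at -0.31, which the endothelial rule used, are a description. Icam1, an adhesion molecule for leukocytes, had 576.6, 534.6 and 443.8 CPM with IgG1 and 612.9, 755.5 and 823.8 CPM with ipilimumab. Its groups did not overlap, and the log2 difference was 0.51 (edgeR adjusted p = 0.781). Cx3cl1, of the same list, went the other way, with every ipilimumab mouse below every IgG1 mouse in CPM. Among 14 immediate early and heat shock genes, 9 had a positive difference, with a median of 0.06, and with at least 6 Car4 and Ednrb UMIs 10 were positive with a median of 0.31. Jun had a log2 difference of 0.01. Junb was higher without overlap, at 972.4, 1051 and 877.6 CPM with IgG1 and 1335, 1442 and 1305 CPM with ipilimumab, whereas Klf4, a transcription factor linked to endothelial quiescence, was lower without overlap, at 1013, 1074 and 1044 against 840.7, 764.1 and 856.9 CPM.

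In other blood endothelium, fitted the same way, 4 of 5533 genes were called, all higher with ipilimumab (0.0723%). They were Arhgap15, Satb1, Bank1 and Igkc, of which Bank1 and Igkc are B cell genes. Arhgap15 had 1, 1 and 1 UMIs with IgG1 and 50, 29 and 37 UMIs with ipilimumab. Arhgap15, Satb1 and Bank1 passed the count filter only through the ipilimumab mice, so no support is drawn from the direction of their calls. With at least 4 of 6 endothelial genes, or without IgG1 replicate 1, no gene was called there. The number called was 7 without IgG1 replicate 2 and 15 without ipilimumab replicate 2. The 5 B cell markers summed to 20.9, 51.5 and 0 CPM with IgG1 and 137.8, 105.7 and 145.5 CPM with ipilimumab in that class, and to 11.5, 4.57 and 9.92 against 121, 13 and 18.9 CPM in aerocytes, where ipilimumab replicate 1 alone was high. The part of lymphocyte RNA in these calls was not tested.

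Whether the endothelial classes differed in their treatment effect was tested with both classes in one fit and the mouse as a block. One gene of 6695 was called (0.0149% higher, 0% lower), Mgp (chr6:136872435-136875823), which encodes the calcification inhibitor matrix Gla protein. The log2 difference in aerocytes minus that in other blood endothelium was 4.26 (SE 0.69, edgeR adjusted p = 0.0185). In aerocytes Mgp had 0, 12 and 1 UMIs with IgG1 and 58, 1 and 1 UMIs with ipilimumab, and in other blood endothelium 98, 209 and 0 UMIs with IgG1 and 134, 0 and 6 UMIs with ipilimumab. In CPM, Mgp in aerocytes was highest in ipilimumab replicate 1 at 116.9 and next in IgG1 replicate 2 at 54.8, where 11 of its 12 UMIs lay in the large mixed barcode. The adjusted p missed the threshold without ipilimumab replicate 1 (0.903), ipilimumab replicate 2 (0.0816), IgG1 replicate 1 (0.200) or IgG1 replicate 2 (0.372), while the log2 difference stayed at 4.24, 4.19, 3.90 and 4.95. Without IgG1 replicate 3, 11 genes were called, and without ipilimumab replicate 3, 3 genes. Mgp in barcodes of at most 100 UMIs was highest in ipilimumab replicate 1 as well, at 528.1 CPM against 102.6 to 249.1 CPM in the other 5 libraries, and the part of free RNA was not tested.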

How the data were processed

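Single-cell 3′ libraries of the right lung of 6 mice were used. The authors aligned reads to mm10 with Cell Ranger, and the deposited files hold raw UMI counts per gene for all barcodes, before the authors' ambient correction and filtering. Matrix headers name Cell Ranger 4 and the submitters' processing notes 7.0.0, while the authors' published methods name another version. Libraries held 37666042 to 48612412 UMIs.

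Barcodes were chosen by the stated gate, with no doublet caller. Counts were summed per mouse and class and tested with edgeR 4.0.16 (filterByExpr, TMM, quasi-likelihood, Benjamini-Hochberg over all genes tested), and DESeq2 1.42.0 was an alternative. A call needed adjusted p under 0.05 and an absolute log2 difference over 0.3. CPM are UMIs scaled to 1000000 per sum, and log2 differences also include TMM scaling. Shares were compared with exact permutation tests. Each mouse is a replicate, numbered in the labels. Alternatives changed the scaling, the count filter, the tool, the replicate block, the gate limits and the mice included, or left out possible doublets. Possible doublets held at least 2 UMIs of the 5 genes Epcam, Cdh1, Pdgfra, Col1a2 and Pdgfrb together. Barcodes of over 3 times the median UMIs of all blood endothelial barcodes of their mouse also counted as possible doublets. The authors' own cell labels were not used here.

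Members and gene lists were chosen with earlier results of these data known. Named genes were the called genes and, where fewer than 10 were called, those of smallest p up to 10, members of the lists, the 20 largest and 10 smallest ratios between classes with the same sign in all 6 mice and, for the difference between classes, the called gene. Coordinates are from GENCODE on GRCm38. One listed gene is not reported here by name.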

Additional observations from a re-analysis of the deposited data

Results flagged for a closer look

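Mgp was called in the test of a difference in treatment effect between aerocytes and other blood endothelium, with a log2 difference of 4.26 (edgeR adjusted p = 0.0185). Without ipilimumab replicate 1, which held 58 aerocyte UMIs of this gene against 1 in each of the other ipilimumab mice, it was 4.24 with an adjusted p of 0.903. The adjusted p also missed the threshold without IgG1 replicate 1 (0.200), IgG1 replicate 2 (0.372) or ipilimumab replicate 2 (0.0816), with at least 3 Car4 and Ednrb UMIs (0.244) or at least 6 (0.515), with 4 of 6 endothelial genes (0.0637) and with 2000 UMIs (0.645), at log2 differences from 3.14 to 4.95. Without barcodes of over 30000 UMIs it was 6.47 with an adjusted p of 4.9e-05.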

How the results depend on the processing

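In aerocytes no gene was called by edgeR, against 94 with no filter on low counts, 1 with DESeq2 (Hmcn1), 5 with the replicate block (Hmcn1, Cd93, Gm29865, Chil3 and Scgb1a1) and 2 without possible doublets (Gm29865 and Chil3). Leaving out each mouse gave 0 to 11 calls, with the 11, all lower and including Hmcn1, Cd93, Ptprb, Vwf and Tek, without IgG1 replicate 3 and 1 (Scgb1a1) without ipilimumab replicate 3. RLE scaling, at least 4 of 6 endothelial genes, 2000 UMIs, and limits of 3 or 6 Car4 and Ednrb UMIs gave 0, as did leaving out barcodes of over 30000 UMIs, where 375 genes had an unadjusted p under 0.05. In other blood endothelium the 4 calls became 123 with no filter, 0 with at least 4 of 6 endothelial genes, 8 without possible doublets and 0 to 15 with a mouse left out. For the difference between classes the 1 call became 14 with no filter, 0 with limits of 3 or 6 Car4 and Ednrb UMIs, 0 with 4 endothelial genes, 0 with 2000 UMIs, 0 without possible doublets and 0 to 11 with a mouse left out. The causes were not tested. The difference in aerocyte share of all barcodes ran from -0.0145 percentage points (without IgG1 replicate 2, a reversed sign) to 0.426 with a mouse left out, and that of blood endothelium from -21.4 to -7.07. Thinned to 1000 UMIs a barcode, the latter was -8.41. Deviations of mice with the same replicate number correlated at -0.017, 0.031 and 0.113, against -0.132 to 0.091 for different numbers. These values cannot tell whether mice of the same number shared a batch. The replicate block gave 5 calls in aerocytes and 3 in other blood endothelium. Ier3 and Cd274 kept their sign under all 16 alternatives run for each and passed the threshold with no filter alone. With 26 to 74 aerocytes per mouse, the median standard error of a log2 difference was 0.29.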
